A study of Mus musculus with 20 samples.

Results

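The 10 genes described here encode the mouse NF-κB transcription factor subunits and the inhibitors that hold them back. They were taken by gene symbol, and each matched 1 row among the 37681 genes listed in every count table. Rela, Rel, Relb, Nfkb1 and Nfkb2 encode the 5 subunits. Nfkbia, Nfkbib and Nfkbie encode the 3 cytoplasmic inhibitors IκBα, IκBβ and IκBε, and Nfkbiz and Bcl3 encode the nuclear IκB-type proteins IκBζ and Bcl-3. All 10 passed the filter on low counts (a minimum of 5 reads, reached by 5 or more of the 10 libraries of a table) in each of the 6 tables, among 15578 genes that passed it in any table and were tested.

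RNA came from whole liver of 12-week-old male C57/B6J mice (strain given as C57/BL6 in the sample labels). Of 10 mice, 5 (ILB_9577, ILB_9578, ILB_9579, ILB_9582 and ILB_9583) had been injected intraperitoneally with IL-1β at 20 µg/kg, and 5 (UNT_9574, UNT_9575, UNT_9576, UNT_9580 and UNT_9584) with saline, which are called untreated. Livers were taken 4 h later. The labels name no transgene or deletion in any mouse. From the RNA of every mouse 1 library was made for Illumina and 1 for Ion Torrent, and the reads of each platform were aligned with GSNAP, STAR, and STAR + Bowtie2, which gives 6 tables of 10 libraries with 10568530 to 12008799 reads per Illumina library and 12199528 to 16439683 per Ion Torrent library. The Illumina table aligned with STAR is the main one below, and the other 5 are used as a check.

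NF-κB proteins act as dimers. In resting cells the dimers are kept in the cytoplasm by IκB proteins, whose ankyrin repeats cover the signal for nuclear import. IL-1β binds its receptor, the adaptor MyD88 and the IRAK kinases pass the signal on, and the IκB kinase complex marks IκBα for ubiquitination and destruction, so that RELA-containing dimers enter the nucleus. Nfkb1 and Nfkb2 encode long precursors that are themselves inhibitory through their ankyrin repeats and are trimmed to DNA-binding subunits, the Nfkb2 product through the kinase NIK of the noncanonical pathway. Several of these genes carry κB sites and are known targets of NF-κB, with Nfkbia the textbook example of negative feedback. IκBζ and Bcl-3 sit in the nucleus on dimers of the NFKB1 and NFKB2 products and can raise or lower transcription. In liver the pathway drives the acute-phase response and protects hepatocytes from death signals.

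κB sites near the start sites of the members are shown first, because several members are known NF-κB targets. RefSeq promoter windows (250 bases before to 50 after the start, build GRCm38.p6) were given for 7 members, Nfkb2 with 3 start sites. Windows for Nfkb1, Relb and Nfkbiz were not used here. Each of the 9 windows matched NCBIM37 (mm9), the build of the count tables, at exactly 1 place, and the coordinates given are on that build. Both strands were searched for the κB consensus by its 10 letters, and matches that overlap by a shift of 1 base were counted separately. In the lines that follow, the match is in capitals with 10 bases on either side, read 5′ to 3′ on the strand of the gene.
Nfkbia, chr12:56593644-56593673, minus strand, match 29 to 20 bases before the start: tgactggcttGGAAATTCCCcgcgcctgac
Nfkb2, chr19:46379178-46379207, plus strand, 39 to 30 bases before the first start: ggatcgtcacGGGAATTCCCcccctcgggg
Nfkb2, chr19:46379206-46379235, plus strand, 11 to 2 bases before the first start: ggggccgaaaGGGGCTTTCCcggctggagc
Nfkb2, chr19:46379939-46379968, plus strand, 236 to 227 bases before the second start: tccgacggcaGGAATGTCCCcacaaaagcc
Nfkb2, chr19:46380185-46380214, plus strand, 225 to 216 bases before the last start: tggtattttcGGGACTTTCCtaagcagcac
Bcl3, chr7:20408083-20408112, minus strand, 3 to 12 bases after the start: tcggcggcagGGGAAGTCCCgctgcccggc
Nfkbie, chr17:45692533-45692562, plus strand, 106 to 97 bases before the start: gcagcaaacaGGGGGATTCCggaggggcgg
Rel, chr11:23671042-23671071, minus strand, 92 to 83 bases before the start: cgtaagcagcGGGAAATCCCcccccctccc

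A match was present for 5 of the 7 members with a window (Nfkbia, Nfkb2, Bcl3, Nfkbie and Rel) and in 7 of their 9 windows. The last 2 Nfkb2 windows overlap. The match before the last start also lies 11 to 20 bases after the second start, and was counted in both windows. Of all 32851 windows in the table, 1480 (4.51%) hold a match, and 1388 of 27025 genes (5.14%) have one in any window. The windows of Rela and Nfkbib hold none, which says only that these letters are not within that stretch. Windows are missing for 3 of the 10 members, so no share over all 10 is given. The first Nfkb2 window had a match beginning 1 base further in than the one at 39 bases, and so did that of Rel at 92 bases.

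IL-1β raised 9 of the 10 transcripts and lowered 0 in the Illumina STAR data (edgeR quasi-likelihood test, adjusted p < 0.05 over all genes tested). The background was high in this liver: 22.7% of the genes tested were called higher and 22.9% lower, so that a single call says little about a gene. A log2 fold change above 1 together with a call was rarer, at 8.02% of all genes, and 6 members had one (Nfkb2, Bcl3, Relb, Nfkbib, Nfkbiz and Rela). In 7 members every treated mouse lay above every untreated mouse, which held for 17.6% of all genes in this direction. The median log2 fold change of the 10 was 1.24. The remaining member, Rel, did not pass the test. TMM scaling added 0.13 to log2 fold changes, and without it the calls over all genes were 2746 higher and 4335 lower in place of 3541 and 3575.

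**Figure D1:**
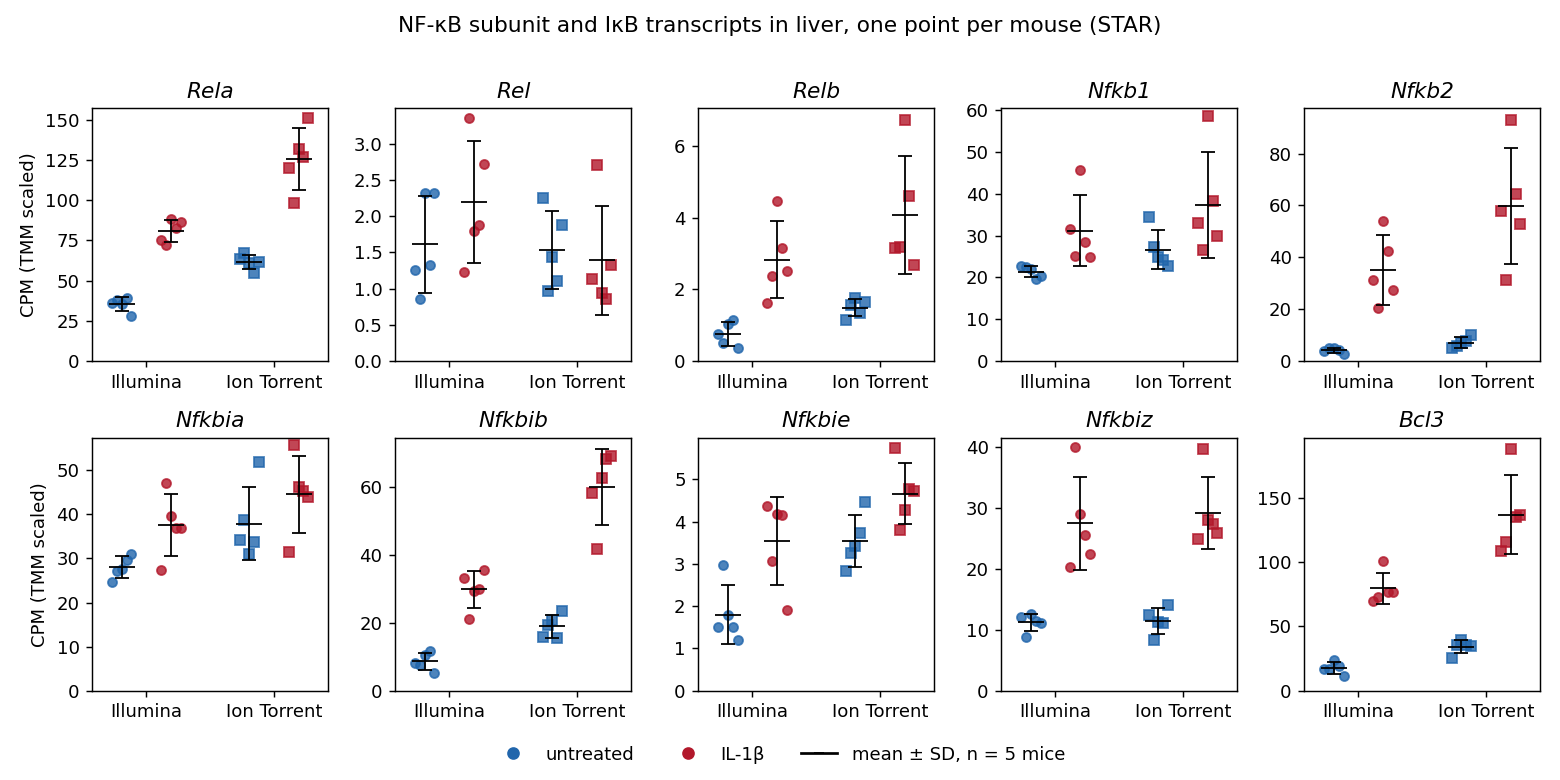
CPM after TMM scaling (vertical axes, from 0) for each gene in the STAR tables of both platforms, with one point per mouse and bars for the mean ± SD of 5 mice. Treated points clear the untreated ones on both platforms for Rela, Relb, Nfkb2, Nfkbib, Nfkbiz and Bcl3, and overlap them for Rel, Nfkbia and Nfkbie.

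The subunits with a transactivation domain come first, values per mouse being in the order of the mouse numbers given above. Rela (ENSMUSG00000024927, chr19:5637483-5648130, plus strand) encodes p65, the main activating subunit of the canonical pathway. Its CPM (counts of a gene for every 1000000 counted in its library, after TMM scaling) were 75.4, 71.9, 88.3, 82.7 and 86.3 in treated mice and 36.3, 37.7, 35.3, 39.4 and 28.3 in untreated mice. The groups lay far apart, with little spread within either. The change was 2.28-fold (log2 1.19 ± 0.11 SE, adjusted p = 4.56e-07, edgeR), with 7.80% of genes tested having a larger log2 fold change. In the Ion Torrent STAR data Rela rose from 61.5 ± 4.49 to 126 ± 19.0 CPM (SD, n = 5 each), again without overlap.

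Relb (ENSMUSG00000002983, chr7:20191566-20214787, minus strand) encodes the partner of the NFKB2 product in the noncanonical dimer. In the Illumina STAR data Relb was the lowest of the 10 per length in both groups, overlapping Rel in treated mice. It rested on few reads, 17, 24, 45, 32 and 25 in treated against 9, 6, 12, 13 and 4 in untreated mice. No treated mouse fell to the untreated range, and ILB_9579 was the highest. Relb rose 3.65-fold (log2 1.87 ± 0.33 SE, adjusted p = 3.05e-04, edgeR). The Ion Torrent reads were 30 to 79 against 16 to 23, a log2 fold change of 1.45 ± 0.28 SE.

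Rel (ENSMUSG00000020275, chr11:23641514-23670970, minus strand) encodes c-Rel, best known from lymphoid and myeloid cells. Its Illumina reads were 13, 34, 18, 19 and 27 in treated and 15, 10, 27, 15 and 25 in untreated mice. The groups overlapped, with 2 treated mice (ILB_9578 and ILB_9583) above all untreated ones in CPM. The log2 fold change was 0.44 ± 0.32 SE (adjusted p = 0.290, edgeR), and in the Ion Torrent STAR data it was -0.14 ± 0.35 SE (adjusted p = 0.813, edgeR). None of the 6 tables called it, the range being -0.14 to 0.58. The promoter window of Rel holds a κB match as those of Nfkb2 and Bcl3 do.

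Nfkb1 and Nfkb2, the precursor genes, differed widely in response. Nfkb2 (ENSMUSG00000025225, chr19:46379227-46386580, plus strand) had 31.3, 20.3, 54.1, 42.5 and 27.4 CPM in treated mice and 3.75, 4.94, 5.06, 4.44 and 2.69 in untreated mice. Every treated mouse had several times the level of any untreated one. The increase was 8.37-fold (log2 3.07 ± 0.25 SE, adjusted p = 2.15e-07, edgeR), the largest of the 10 and rank 165 among the 15578 genes tested. The log2 fold change was 2.99 to 3.07 over the 6 tables.

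Nfkb1 (ENSMUSG00000028163, chr3:135247619-135354511, minus strand) encodes the precursor of p50, the usual partner of RELA. It had 31.5, 25.2, 45.6, 28.4 and 25.0 CPM in treated mice and 22.8, 22.4, 22.0, 19.6 and 20.3 in untreated mice. The lowest treated mouse lay just above the highest untreated mouse, and ILB_9579 stood above the other treated mice. The increase was 1.45-fold (log2 0.54 ± 0.15 SE, adjusted p = 0.00854, edgeR), and 0.36 on the log2 scale without ILB_9579 (adjusted p = 0.0169). In the Ion Torrent STAR data the groups overlapped, at 26.5 to 58.5 against 22.8 to 34.5 CPM (log2 0.48 ± 0.18 SE, adjusted p = 0.0452, edgeR). Leaving out UNT_9584 there ended the call (log2 0.43, adjusted p = 0.100).

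Among the cytoplasmic inhibitors, the one with the highest level had the smallest log2 fold change. Nfkbia (ENSMUSG00000021025, chr12:56590398-56593634, minus strand) encodes IκBα, whose resynthesis ends the canonical response. It had 27.4, 47.1, 39.7, 36.9 and 36.9 CPM in treated mice and 24.7, 27.1, 27.5, 29.6 and 31.1 in untreated mice. ILB_9577 lay within the untreated range and the other 4 above it. The increase was 1.34-fold (log2 0.42 ± 0.13 SE, adjusted p = 0.0138, edgeR), and 26.1% of all genes tested had a larger log2 fold change. The call was lost without TMM scaling (log2 0.30, adjusted p = 0.0576) and in the 3 Ion Torrent tables, where it was 0.23 to 0.25 (adjusted p = 0.221 to 0.253). In the Ion Torrent STAR table UNT_9584 was the highest untreated mouse, at 51.8 CPM against 31.1 to 38.7 in the other 4, and without it the log2 fold change was 0.37 (adjusted p = 0.0540, edgeR).

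Nfkbib (ENSMUSG00000030595, chr7:29543270-29552531, minus strand) encodes IκBβ, which binds the same dimers as IκBα. It had 33.2, 21.2, 29.4, 30.1 and 35.6 CPM in treated mice and 8.07, 7.49, 10.5, 11.8 and 5.29 in untreated mice. The groups were well apart, and ILB_9578 was the lowest treated mouse. The increase was 3.46-fold (log2 1.79 ± 0.19 SE, adjusted p = 2.78e-06, edgeR), with 1.61 to 1.83 over the 6 tables. Nfkbib shares 42 exon bases (1.94% of its own) with Sirt2 on the opposite strand, and Sirt2 itself was at log2 0.02 ± 0.10 SE (adjusted p = 0.927, edgeR).

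Nfkbie (ENSMUSG00000023947, chr17:45692665-45700118, plus strand) encodes IκBε, a further inhibitor that follows NF-κB activity. Its Illumina reads were 46, 31, 42, 42 and 19 in treated and 18, 35, 21, 17 and 13 in untreated mice. The groups overlapped through ILB_9583 and UNT_9575. Nfkbie rose 1.95-fold (log2 0.97 ± 0.28 SE, adjusted p = 0.00991, edgeR). In the Ion Torrent STAR data 3 of 5 treated mice lay above all untreated mice, with a log2 fold change of 0.40 ± 0.19 SE (adjusted p = 0.111, edgeR), and the gene was called in 4 of the 6 tables.

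Both nuclear IκB-type genes rose on each platform. Bcl3 (ENSMUSG00000053175, chr7:20393811-20408119, minus strand) had 70.0, 73.3, 101, 77.1 and 76.9 CPM in treated mice and 17.0, 16.9, 23.5, 19.2 and 11.2 in untreated mice. Treated mice other than ILB_9579 lay within a narrow band, and none came near the untreated mice. The increase was 4.52-fold (log2 2.18 ± 0.16 SE, adjusted p = 8.68e-08, edgeR). Bcl3 shares 161 exon bases (6.48%) with Gm16175 on the opposite strand, which had 0 reads in all libraries of both STAR tables.

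Nfkbiz (ENSMUSG00000035356, chr16:55811488-55839012, minus strand) encodes IκBζ, a co-activator needed for secondary response genes such as Lcn2. It had 20.3, 39.9, 29.0, 25.5 and 22.5 CPM in treated mice and 12.1, 8.85, 12.5, 11.4 and 11.1 in untreated mice. All treated mice were higher, ILB_9578 most of all. The increase was 2.45-fold (log2 1.30 ± 0.17 SE, adjusted p = 2.06e-05, edgeR), and 1.12 on the log2 scale without ILB_9578 (adjusted p = 1.76e-05).

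**Figure D2:**
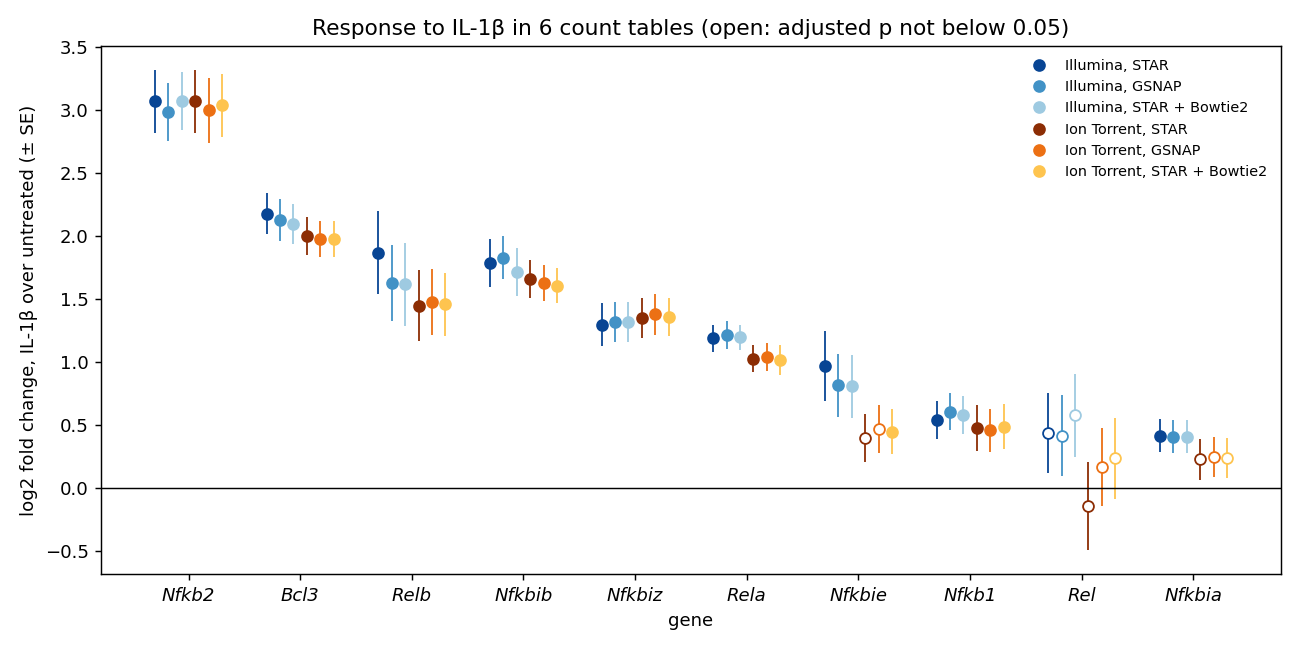
Fitted log2 fold change of IL-1β over untreated (vertical axis, ± SE) for the 10 genes (horizontal axis) in the 6 count tables, filled where the adjusted p is below 0.05. Nfkb2, Bcl3, Relb, Nfkbib, Nfkbiz and Rela lie above 1 in all 6 tables, Nfkbia is filled only in the 3 Illumina tables and Rel in none.

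Across the tables, 9 members were called higher in each of the 3 Illumina tables, 7 in the Ion Torrent tables aligned with STAR and with GSNAP, and 8 in Ion Torrent STAR + Bowtie2, against 22.7% of all genes in Illumina STAR, 23.7% in Illumina GSNAP, 22.9% in Illumina STAR + Bowtie2, 20.3% in Ion Torrent STAR, 22.5% in Ion Torrent GSNAP and 22.8% in Ion Torrent STAR + Bowtie2. No member was called lower in any of them, while 23.9%, 24.4%, 21.8%, 23.9% and 24.0% of all genes were in the 5 tables other than Illumina STAR, in the same order. In Ion Torrent STAR every treated mouse lay above every untreated mouse for 6 members and 15.5% of all genes. The rank-sum test of the study called 6 members higher in Illumina STAR (13.8% of all genes), those with a log2 fold change above 1. By edgeR these 6 and Nfkb1 were called in all 6 tables. The tables share their mice and, within a platform, their reads, so they are not independent repeats.

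Whether the 2 platforms differed in the response was tested by a platform-by-treatment term in all 20 STAR libraries, with the mouse as a block. The term passed for 0 of the 10 members and for 1 of 15578 genes (0.00642%), with 1090 genes at an unadjusted p below 0.05. After alignment with GSNAP, 10 genes passed (0.0642%), and with STAR + Bowtie2, 12 (0.0770%), again with no member among them. The estimate was nearest to zero for Nfkb2, at 0.04 with a 95% interval of -0.35 to 0.42 (Ion Torrent minus Illumina, log2). Rela had -0.16 (-0.35 to 0.04) and Bcl3 -0.18 (-0.43 to 0.07). The low-count genes had the widest intervals. Nfkbie was at -0.55 (-1.10 to 0.01), Rel at -0.59 (-1.26 to 0.09) and Relb at -0.42 (-1.05 to 0.22). These intervals do not show that the platforms respond alike.

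Levels per length were compared between genes as CPM per kilobase of exon. In untreated liver Nfkbia was the highest of the 10 at 17.8 ± 1.55 (SD, n = 5), followed by Rela at 13.0 ± 1.57 and Bcl3 at 7.07 ± 1.79, and the ranges of these 3 did not overlap. Nfkb1 (4.47 ± 0.289), Nfkbib (3.98 ± 1.18) and Nfkbiz (2.23 ± 0.283) came next, where neighbours in the order overlapped. Nfkb2 (1.27 ± 0.297), Nfkbie (0.743 ± 0.286) and Rel (0.577 ± 0.239) also overlapped from neighbour to neighbour, and Relb (0.196 ± 0.0854) lay below Rel without overlap.

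After IL-1β the order changed. Bcl3 (32.0 ± 4.90) and Rela (29.8 ± 2.59) were at the top with overlapping ranges, and Nfkbia (23.8 ± 4.48) overlapped Rela. Nfkbib (13.8 ± 2.52) lay below Nfkbia without overlap, and Nfkb2 (10.7 ± 4.05) had passed Nfkb1 (6.49 ± 1.77) and Nfkbiz (5.47 ± 1.53), with overlaps from Nfkbib down to Nfkbiz. Nfkbie (1.46 ± 0.430), Rel (0.784 ± 0.299) and Relb (0.726 ± 0.275) were again the lowest. In the Ion Torrent STAR data Bcl3, Rela and Nfkbia were likewise the first 3 after IL-1β, and Nfkbia, Rela and Bcl3 the first 3 in untreated mice, but there the untreated ranges of Nfkbia (19.7 to 32.8) and Rela (20.2 to 24.7) overlapped. In treated mice on Ion Torrent STAR, Rel (0.497 ± 0.269) and not Relb (1.05 ± 0.425) was the lowest, with overlap. Ion Torrent levels of single genes are not set against Illumina levels, since each table was normalized on its own.

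**Figure D3:**
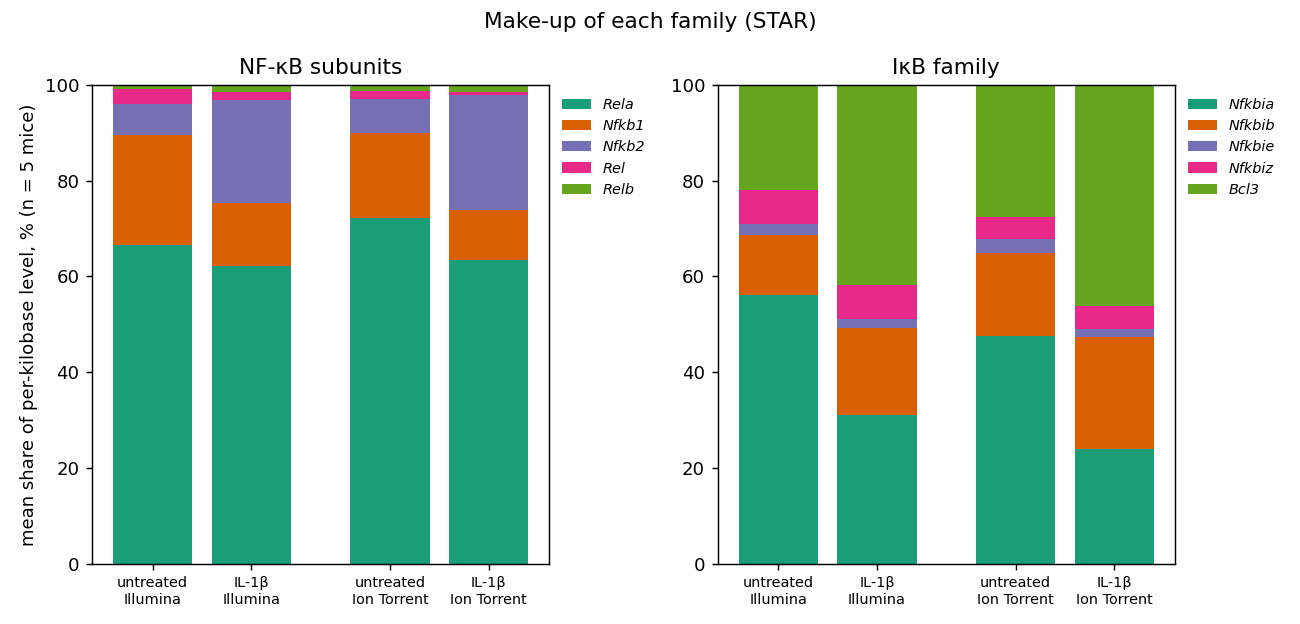
Mean share (vertical axis, %) of each gene in the summed per-kilobase level of the 5 subunits (left) and of the 5 IκB-family genes (right), by treatment and platform in the STAR tables, n = 5 mice. Nfkb2 takes 6.44% of the subunit total in untreated and 21.5% in treated Illumina libraries, and Bcl3 22.1% and 41.7% of the IκB-family total.

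Shares within a library do not depend on scaling between libraries. Rela made up 66.6% ± 2.63 of the subunit transcripts per length in untreated and 62.1% ± 5.55 in treated mice (SD, n = 5, Illumina). Nfkb1 went from 23.0% ± 2.19 to 13.3% ± 1.98 while Nfkb2 went from 6.44% ± 1.09 to 21.5% ± 4.98. Neither pair of ranges overlapped, the first being 19.7 to 25.8% against 11.1 to 15.8% and the second 4.99 to 7.62% against 15.6 to 27.3%. The Nfkb2 to Nfkb1 ratio was 1.45, 1.17, 1.73, 2.19 and 1.60 in treated mice and 0.239, 0.321, 0.336, 0.330 and 0.194 in untreated mice. All treated mice thus had more Nfkb2 than Nfkb1 per length and all untreated mice less. In the Ion Torrent data the ratio was 1.72 to 2.59 against 0.217 to 0.651.

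Among the 3 cytoplasmic inhibitors, Nfkbia fell from 79.1% ± 4.67 of the summed level to 60.7% ± 8.22 as a share, with ranges of 75.5 to 87.0% and 50.4 to 73.0%. Nfkbib made up 17.6% ± 4.50 and 35.6% ± 7.78. On Ion Torrent, Nfkbia and Nfkbib had 48.8% ± 8.47 and 47.9% ± 7.94 after treatment, against 70.0% ± 3.27 and 25.7% ± 3.13 without. IκB transcripts were thus shared out more evenly in treated mice on both platforms.

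The summed level of the 5 subunits was 48.5 ± 7.71 in treated and 19.5 ± 1.79 in untreated mice, and that of the 3 cytoplasmic inhibitors 39.1 ± 2.69 and 22.5 ± 1.75 (CPM per kilobase, SD, n = 5). The ratio of inhibitors to subunits was 0.772, 1.03, 0.672, 0.768 and 0.866 in treated mice and 1.01, 1.07, 1.14, 1.20 and 1.38 in untreated mice. Only ILB_9578 reached the untreated range. Nfkb1 and Nfkb2 are counted here as subunits only, although their precursors are also inhibitory. With Nfkbiz and Bcl3 counted as inhibitors the ratio was 1.60 ± 0.219 and 1.63 ± 0.146, so the difference in the first ratio was not present in the second. On Ion Torrent the first ratio was 0.660 to 1.06 against 0.908 to 1.44, with overlap. The sums are mRNA levels and say nothing of protein, most of all for proteins that are degraded on stimulation.

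**Figure D4:**
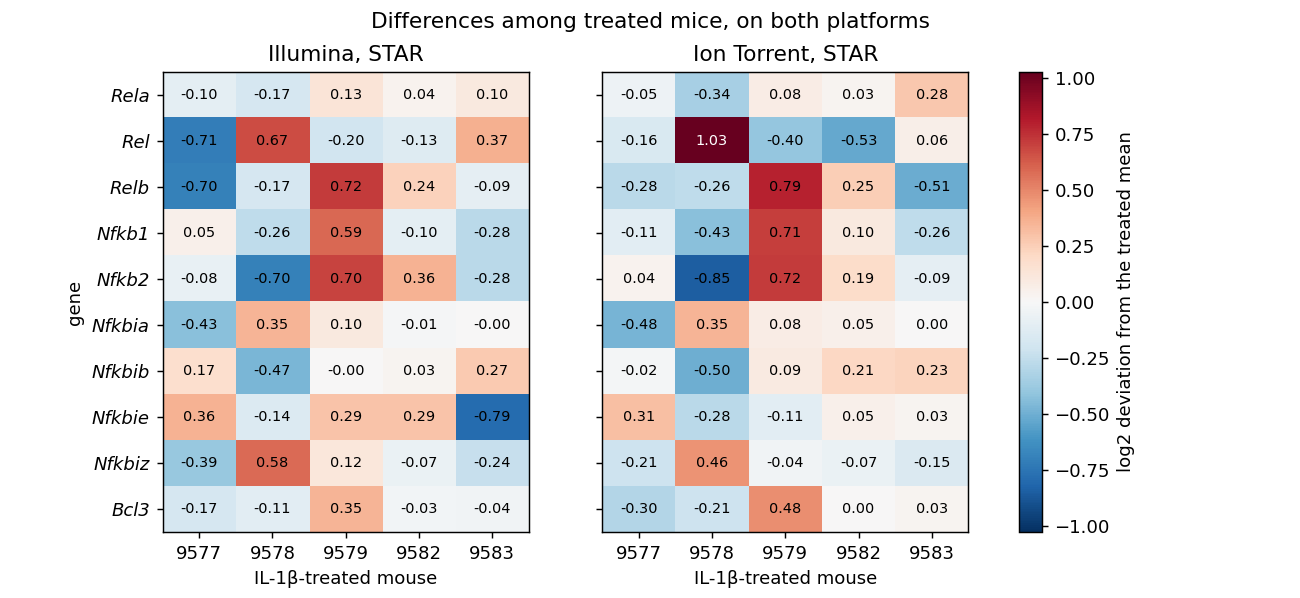
Deviation of each treated mouse (horizontal axis) from the treated mean for the 10 genes (vertical axis), as log2 of CPM with 0.1 added, in the STAR tables of both platforms. ILB_9579 is high for Relb, Nfkb1, Nfkb2 and Bcl3, and ILB_9578 is high for Rel, Nfkbia and Nfkbiz and low for Nfkb2 and Nfkbib in both panels.

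The treated mice differed among themselves, and their order was largely shared by both libraries of a mouse. Of 50 deviations from the treated mean (10 genes by 5 mice), 38 had the same sign on Illumina and Ion Torrent, and for 9 of 10 genes the highest treated mouse was the same animal. Over 10543 genes the deviations of paired libraries correlated at 0.547 to 0.705 in treated mice, so such agreement was not particular to these 10 genes. The 10 genes of a mouse are not independent. In untreated mice 24 of 50 signs were shared, and the highest mouse for 3 of 10 genes. There UNT_9584 was the lowest mouse for 6 genes on Illumina and the highest for 5 on Ion Torrent. Deviations of its paired libraries correlated at 0.248 over 10543 genes, against 0.609 to 0.715 in the other untreated mice. UNT_9584 stood apart on Illumina too. The chi-square per degree of freedom of its STAR counts against another untreated mouse was 23.15 to 34.97, against 14.64 to 25.54 for pairs without it. Without UNT_9584 the Illumina log2 fold changes of Rela (1.12), Nfkbib (1.66), Nfkbie (0.86) and Bcl3 (2.06) were at their lowest over the mice left out, and still called. The study found the Ion Torrent read lengths of UNT_9584 shifted, and names read length as a possible source of technical variability. Whether either of these lowered the number of shared signs was not tested. ILB_9579 had the highest Relb, Nfkb1, Nfkb2 and Bcl3 of the treated mice on both platforms. ILB_9578 had the highest Rel, Nfkbia and Nfkbiz and the lowest Nfkb2, Rela and Nfkbib. These libraries share the RNA of the mouse.

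The rest of the pathway was described by 7 gene lists with 94 genes other than the members, of which 87 were tested, 48 called higher and 12 lower (55.2% and 13.8% of those tested, against 22.7% and 22.9% of all genes). The lists were chosen with earlier results of these data known, and 22 of the genes tested are textbook NF-κB targets, 15 of them higher. The shares are a description and not a test of the pathway.
In the signaling chain from the IL-1 receptor to the IκB kinases, 5 of 14 genes rose and 2 fell. Il1r1, the signaling receptor itself, rose from 670 to 1329 reads in untreated mice to 7446 to 10068 in treated mice (log2 3.46 ± 0.18 SE). Its adaptor Myd88 rose by 1.77 on the log2 scale and Irak4, the first kinase, by 0.94. The receptor accessory chain Il1rap fell by 0.68 and Irak2 by 0.64 (adjusted p = 6.91e-05 and 0.00249, edgeR). None of the 3 IκB kinase genes passed, with Chuk at -0.03, Ikbkb at 0.16 and Ikbkg at 0.36.

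Of 10 genes of the noncanonical pathway 8 rose, none fell, 1 did not pass and Tnfrsf13c was not tested. Tnfrsf12a, the TWEAK receptor, rose by 2.11 (± 0.11 SE), Map3k14, which encodes NIK, by 2.08 (± 0.17 SE) and Tnfrsf11a, the receptor RANK, by 1.21 (± 0.31 SE) on the log2 scale. Tnfrsf11a rested on 12 to 18 reads in treated and 4 to 12 in untreated mice. Map3k14 and both genes of the noncanonical dimer, Nfkb2 and Relb, were all higher. Traf2 (0.77), Traf3 (0.29), Birc2 (0.75), Birc3 (0.75) and Ltbr (0.45) were called higher too. Genes that promote and genes that restrain the pathway are counted together, so the 8 calls give no direction of its activity. Of this list, 6 genes passed in Illumina GSNAP and 7 in Ion Torrent STAR.

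In the machinery that ubiquitinates phosphorylated IκB, 6 of 12 genes rose and 4 fell, all by less than 1 on the log2 scale. Cdc34 (0.69), Cul1 (0.49) and Fbxw11 (0.45) were the highest, and Ube2r2 (-0.60) and Btrc (-0.53) the lowest. Fbxw11 and Btrc, which both encode F-box proteins that recognise phosphorylated IκB, thus moved in opposite directions.
Of the list of other IκB-like genes, Nfkbil1 was at 0.59 (adjusted p = 0.165, edgeR), and Nfkbid had 2 to 6 reads per Illumina library and was not tested. Nkrf, a repressor of NF-κB targets kept in this list although it is not an IκB protein, rose by 0.79 (± 0.17 SE).

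The brakes on NF-κB signaling moved in both directions. Of 16 genes 8 rose, 3 fell, 4 did not pass and Tnip3 was not tested. Irak3, an inactive kinase that blocks the receptor complex, rose from 6 to 15 reads in untreated mice to 140 to 324 in treated mice (log2 4.52 ± 0.31 SE), and Zc3h12a, an RNase that cuts cytokine transcripts, by 2.76 on the log2 scale. Tnfaip3, the deubiquitinase A20 and a direct NF-κB target, had 65, 557, 89, 49 and 48 reads in treated mice and 33, 59, 33, 26 and 25 in untreated mice. One treated mouse, ILB_9578, set most of its log2 fold change of 2.38, which was 1.01 without that mouse (adjusted p = 0.00574, edgeR). Tnfaip3 was at 531 Ion Torrent reads in ILB_9578 and at 48 to 89 in the other treated mice, so the same mouse that had the highest Nfkbia, Nfkbiz and Rel also had the highest Tnfaip3. Usp2, a deubiquitinase, fell by 2.20 and Pdlim2, which directs RELA to degradation, by 1.32 on the log2 scale, the latter at 1 to 7 against 6 to 17 reads.

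Of 13 genes for RELA cofactors and modifiers 5 rose and 1 fell. The acetyltransferase genes Crebbp and Ep300 rose by 0.58 and 0.52, and the deacetylase gene Hdac3 fell by 0.42 on the log2 scale.

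Of 26 textbook NF-κB targets 15 rose, 2 fell, 5 did not pass and Tnf, Il6, Csf3 and Ptgs2 were not tested. The median log2 fold change of the 22 tested was 1.98. Lcn2, an acute-phase protein that binds bacterial siderophores, had 40160 to 50420 reads in treated and 31 to 87 in untreated mice (log2 9.90 ± 0.26 SE). Saa3, an acute-phase serum amyloid, rose by 9.56 (± 0.18 SE) on the log2 scale. Ccl20, a chemokine, had 147 reads over the 5 treated mice and 0 over the 5 untreated mice, at least 49.0-fold higher with up to 3 reads allowed for the untreated group. Irf1 fell by 1.12 (adjusted p = 7.27e-05, edgeR) and Cd83 by 1.26, the latter on 1 to 5 against 4 to 9 reads and called in 4 of the 10 fits that left out a mouse.

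**Figure D5:**
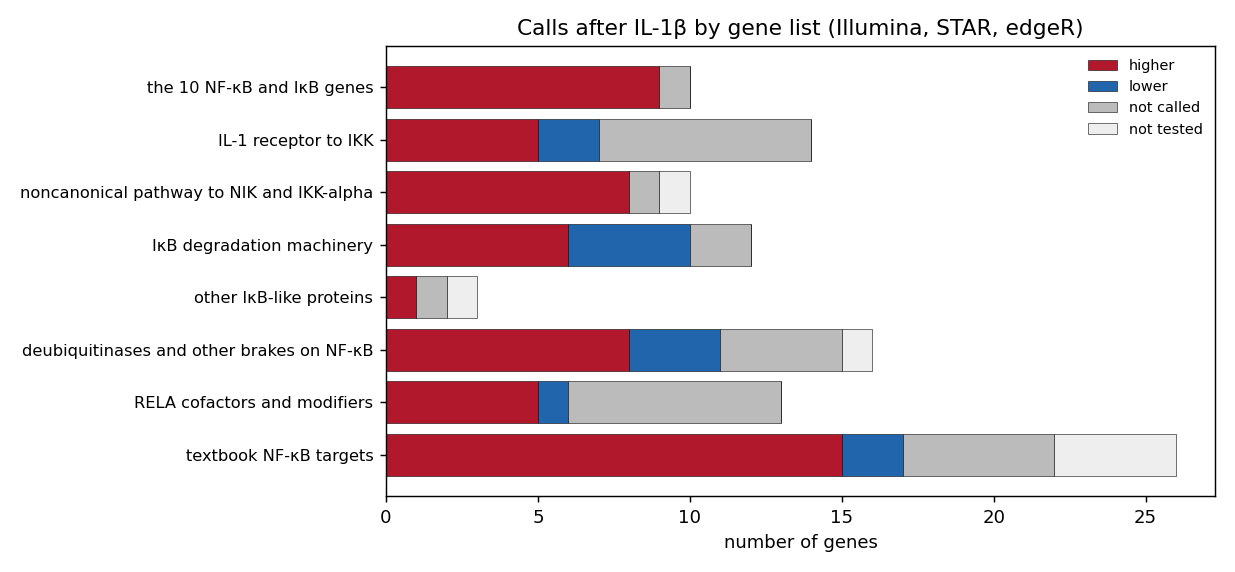
Number of genes (horizontal axis) called higher, called lower, not called or not tested after IL-1β in the Illumina STAR data, for the 10 NF-κB and IκB genes and for 7 lists of related genes (vertical axis). The members and the noncanonical pathway hold no gene called lower, while 4 of 12 IκB degradation genes and 3 of 16 brakes are.

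Whole liver is a mix of cells, and in such RNA fewer cells of a type and less RNA per cell cannot be told apart. The tissue label was borne out by hepatocyte markers, with Alb alone at 505223 to 966350 reads per Illumina library. Of 8 hepatocyte markers 1 rose and 4 fell, against 22.7% and 22.9% of all genes tested. Their summed level was 66709 to 81878 CPM in treated and 94853 to 118553 in untreated mice (Alb -0.53, Cyp3a11 -0.75 on the log2 scale). The 1 that rose was Hnf4a, at 1.05. Of 8 neutrophil markers all 5 tested rose, with a summed level of 49.0 to 106 against 2.13 to 6.33 CPM. S100a9 and S100a8 were the most abundant (log2 5.29 and 5.18), and Retnlg (log2 5.81), the chemokine receptor gene Cxcr2 (4.50) and the G-CSF receptor gene Csf3r (2.27) were the other 3 that rose. Cxcr2 had 28 to 77 reads in treated and 1 to 3 in untreated mice. Ly6g, Mpo and Elane, the last 2 being genes of neutrophil precursors, had at most 2 reads in any Illumina STAR library and were not tested. Among treated mice the neutrophil sum was lowest in ILB_9579 (49.0), which had the highest Relb, Nfkb1, Nfkb2 and Bcl3. It was highest in ILB_9578 (106), which had the highest Rel, Nfkbia and Nfkbiz. ILB_9582 came close at 99.4, and was the highest treated mouse for no member on either platform. The Kupffer cell and macrophage sum was also lowest in ILB_9579 (73.9), and was 172 in ILB_9577 and 166 in ILB_9578. What part neutrophils or macrophages had in the members' change was not tested.

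Of 8 Kupffer cell and macrophage markers 1 rose and 3 fell, with sums of 73.9 to 172 against 133 to 232 CPM. Clec4f was at -0.60 and Cd5l at -0.52 (adjusted p = 0.0520, edgeR), and the 1 that rose was Marco (2.16). With 22.7% of all genes called higher and 22.9% lower, 1 or 2 calls in a list this short say little, here and below. B cell markers summed to 0.503 to 1.39 and 0.977 to 3.83 CPM, with 0 of 3 tested higher and 1 lower. The lower one was Cd79a (-1.92, on 0 to 2 against 3 to 10 reads), and Cd79b (-1.21) did not pass. T cell markers summed to 0.604 to 1.78 and 2.32 to 2.98, with 0 of 2 tested higher and 1 lower (Cd4 -1.76, Cd3g -0.26). Of the 3 B cell markers tested, 3 were called lower in Illumina GSNAP and 2 in Ion Torrent STAR. Both lymphocyte lists lie near the floor, at 18 reads or fewer in any Illumina STAR library. What part lymphocytes had in the members' change was not tested. Of 7 sinusoidal endothelial markers 2 rose and 2 fell, with sums of 138 to 214 and 139 to 221. Lyve1 (1.49) and Cdh5 (0.89) rose, Kdr (-1.68) and Clec4g (-1.21) fell, and Stab1 (0.46) and Stab2 (-0.30) did not pass. Of 6 stellate cell markers 2 fell, at 184 to 265 and 244 to 313 (Dcn -0.23, not passing, and Reln -0.53). Of 4 cholangiocyte markers 2 rose, at 9.06 to 14.7 and 4.37 to 7.07 (Sox9 1.51, Epcam 0.96). The keratin genes Krt19 (0.18) and Krt7 (0.26) did not pass.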

How the data were processed

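Liver RNA of 10 mice was sequenced on 2 platforms (20 libraries). The authors aligned the reads to mm9 with GSNAP, STAR 2.5.1b or STAR followed by Bowtie2 2.2.9, removed rRNA and mitochondrial reads with PORT, assigned reads to Ensembl genes and re-sampled each table to its smallest library. The deposited values are whole-number counts per gene after this re-sampling, not scaled further, and whether a unit is a read or a read pair is not given in the sources used here. Re-sampling and TMM scaling make comparisons relative within a table, so levels were not compared across tables.

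The 6 tables were fitted with edgeR 4.0.16 (quasi-likelihood, TMM, Benjamini-Hochberg over 15578 genes, two-sided) in R 4.3.3. Each fit compares 5 with 5 mice, and the p-values measure the spread between mice. Positions and exon lengths come from the GENCODE annotation of NCBIM37. The platform-by-treatment term kept the mouse as a block, since both libraries of a mouse share its RNA. Deviations of paired libraries correlated at 0.547 to 0.715 over 10543 genes for 9 mice and at 0.248 for UNT_9584. Intervals of this term are normal 95% intervals. Alternatives were DESeq2 1.42.0, limma-voom (limma 3.58.1), the rank-sum test of the study, other scalings and filters, and leaving out each mouse. Python 3.11.15, pandas 2.3.3, numpy 2.4.6, scipy 1.17.1 and matplotlib 3.10.9 were used for summaries, and the fits were checked on simulated data. Named genes are the 10 members, up to 3 highest and 2 lowest called genes of each pathway list, all genes of the list of other IκB-like genes and the 2 most abundant markers of each of 8 cell type lists. Chuk, Ikbkb and Ikbkg, and Retnlg, Cxcr2, Csf3r, Ly6g, Mpo and Elane, were named outside this rule after their values were seen. Hnf4a, Marco, Cd79a, Lyve1, Cdh5, Kdr and Clec4g were named in the same way. So were Traf2, Traf3, Birc2, Birc3, Ltbr, Krt19 and Krt7. Some genes that the rule would name are not reported here. The members and lists were chosen with earlier results of these data known.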

Additional observations from a re-analysis of the deposited data

Results flagged for a closer look

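Among the 40 groups of 5 mice (10 genes, 2 treatments, STAR tables of both platforms), 3 held a mouse whose distance to its nearest neighbour took up more than 0.71 of the range of the group. Chance alone gives about 1 such group in 20. All 3 were treated mice. Bcl3 in the Illumina data was 101 CPM in ILB_9579 and 70.0 to 77.1 in the other treated mice. Rel in the Ion Torrent data was 2.70 CPM in ILB_9578 and 0.852 to 1.33 in the others. Nfkbiz in the Ion Torrent data was 39.6 CPM in ILB_9578 and 24.9 to 28.0 in the others. In each case the same mouse was also the highest treated mouse on the other platform.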

How the results depend on the processing

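The count of members called higher was 6 to 9 under all alternatives and that of members called lower stayed at 0, with 9 and 0 in every fit that left out a mouse. The rank-sum test of the study called 6 members (13.8% of all genes were called higher by it), losing Nfkb1 (q = 0.281), Nfkbia (q = 0.250) and Nfkbie (q = 0.118). Rel changed sign in the Ion Torrent STAR table, at -0.14 against 0.44. The ratio of inhibitors to subunits moved to 1.60 in treated and 1.63 in untreated mice with Nfkbiz and Bcl3 added, from 0.822 and 1.16. Pathway genes called higher were 44 to 51 and lower 9 to 12 when each mouse was left out. No member passed the platform-by-treatment term under any alternative, with or without the replicate block; without the block the term of Rel was -0.57, of Nfkbie -0.55 and of Nfkb2 0.02, and 0 of all genes passed by edgeR (244 at an unadjusted p below 0.05). limma-voom with the block passed 0 genes (1272 unadjusted), and edgeR without UNT_9584 passed 10. The term changed sign for Nfkb2 with STAR + Bowtie2 (-0.02) and, over the fits that left out a mouse, ranged from -0.07 to 0.31 for Nfkb2, -0.10 to 0.06 for Nfkb1 and -0.31 to 0.10 for Nfkbib. The Ion Torrent fit without UNT_9584 was chosen after seeing the data, and it changed the call of Nfkb1 only. The cause of these changes was not tested. Depth limits Rel, Relb and Nfkbie, with at most 46 reads in any Illumina STAR library.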
